A study of Nicotiana tabacum with 12 samples.

Results

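Magnesium chelatase joins magnesium to protoporphyrin IX and so opens the branch of tetrapyrrole synthesis that leads to chlorophyll. Its genes were taken from the deposited table of tobacco (Nicotiana tabacum) seedling leaf transcripts by their descriptions, all those whose text holds the name of the enzyme, and 5 of the 69500 listed genes met this. They are 2 genes of the H subunit, Nitab4.5_0005195g0040 (called ChlH-A here) and Nitab4.5_0010636g0020 (ChlH-B), 2 genes of the D type, Nitab4.5_0000733g0210 (ChlD-A) and Nitab4.5_0001663g0090 (ChlD-B), and 1 gene of the I subunit, Nitab4.5_0006237g0030 (ChlI). The letters A and B only tell the copies apart and name no ancestral genome. Both D-type genes are described with a von Willebrand type A domain, which the ChlI description lacks, and ChlD-B alone is described as subunit D by name. All 5 passed the filter on low values that left 31311 genes.

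The RNA-seq libraries formed 4 groups of 3: an overexpression line labelled YOE, a knockout line labelled Q18, wild type K326 and wild type KY. The study asked how NtCISZOG, named for a glucosyltransferase that acts on the cytokinin cis-zeatin, bears on NtChlH and on chlorophyll content. The series' design text names the lines K326-gk-8 and KY-OE-31, but the labels do not say that these are Q18 and YOE, nor do they give either line's parent, promoter, plant age or number of independent transformants. The knockout was therefore set against K326 and the overexpression line against KY, as the design text reads, and the overexpression line also against K326. No gene of the table could be matched to NtCISZOG, so the targeted gene is not given here. Nothing says that replicates were separate plants, so the p-values speak of the spread among the libraries alone, which may be technical.

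The H subunit is the large catalytic protein that binds the porphyrin, and in Arabidopsis it is also known as GUN5 from work on signals sent by the plastid to the nucleus. The I and D subunits belong to the AAA+ ATPases and form a ring complex that drives the insertion with ATP, in which I hydrolyses ATP and D is a platform that holds the parts together. GUN4 is a porphyrin-binding partner that stimulates the enzyme. Tobacco is an allotetraploid, so that a gene often has a copy from each ancestral genome. Tobacco plants with a defect in ChlI or with less ChlH are known for pale or yellow leaves.

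Values were taken as TPM, each transcript's share corrected for gene length, as the authors deposited them. The columns summed to between 334759 and 676862, not to a fixed total as complete TPM columns would. The header names no unit, the values could also be FPKM, and read depth is unknown. The lowest sum was in an overexpression library and the highest in a knockout library, so the tests of the chelatase genes were also run after median scaling, in which a library is divided by the median of its ratios to the average library. Over all tested genes the median log2 change was 0.24 for knockout against K326, -0.11 for overexpression against KY, 0.39 for K326 against KY and -0.51 for overexpression against K326 as deposited, and between -0.02 and 0.02 after scaling. Leaf markers were high in every library: the 14 Rubisco small subunit genes summed to 10476 to 11288 TPM in overexpression, 10015 to 22850 in knockout, 11697 to 13538 in K326 and 12118 to 17756 in KY. The 93 light-harvesting genes summed to 20611 to 22948 TPM in overexpression, 28378 to 44943 in knockout, 26307 to 43107 in K326 and 30042 to 36094 in KY. The 60 phloem protein and sieve element genes summed to 495 to 1325, 635 to 727, 388 to 516 and 446 to 466 TPM in the same groups. After scaling these were 685 to 1528 in overexpression, 469 to 602 in knockout, 368 to 421 in K326 and 525 to 634 in KY. Every overexpression library then lay above every other library. The light-harvesting sums after scaling were 23765 to 44494, 18808 to 35227, 23426.5 to 40044 and 35844 to 49121, and overexpression overlapped each group. The Rubisco sums were then 13016 to 20312, 7225 to 17910, 10358 to 12668 and 14243.5 to 24164.5, with overexpression above K326. In bulk leaf, fewer cells of a type and less RNA per cell cannot be told apart.

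At genes that separate the wild types, the overexpression libraries lay nearer to K326 than to KY. There were 122 genes, 0.390% of those tested, with all KY libraries at 0.5 TPM or less and all K326 libraries at 2 TPM or more. The overexpression libraries were all above 0.5 TPM at 118 of these, though all at 2 TPM or more at 63, and the knockout libraries were all above 0.5 TPM at 119. The reverse pattern held for 22 genes, 0.0703%, and the overexpression libraries were all at 0.5 TPM or less at 18 of them. Against KY, an effect of the overexpressed gene and a difference in background cannot be told apart. ChlH-A and ChlD-A are among the 122 genes.

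ChlH-A was high in every group but KY, where it was near 0. It had 46.9, 38.0 and 34.7 TPM in the overexpression libraries, 81.1, 39.9 and 50.3 TPM in knockout, 49.5, 51.6 and 69.7 TPM in K326, and 0.06, 0.26 and 0 TPM in KY. The lowest value outside KY was 34.7 TPM, so KY overlapped no other group. As deposited the overexpression libraries all lay below those of K326 and the knockout libraries spanned both, but after scaling the overexpression and K326 ranges overlapped, and the overexpression mean was the higher, at 59.5 against 52.6 TPM. Among the genes detected in a library it ranked between the 93.2 and 97.3 percentiles outside KY and between the 6.47 and 17.2 percentiles in KY.

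ChlH-B showed the opposite order, with KY at the top. It had 60.4, 49.0 and 42.1 TPM in overexpression, 117, 48.9 and 69.2 TPM in knockout, 66.8, 65.6 and 89.1 TPM in K326, and 272, 215 and 236 TPM in KY. Every KY library was above every other library, also after scaling. As deposited the overexpression libraries were again below those of K326, while after scaling these ranges overlapped, with means of 75.7 TPM in overexpression and 68.4 TPM in K326. The gene ranked at the 99.3 to 99.4 percentiles in KY, against 94.6 to 98.2 in the other groups.

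The D-type copies behaved as the H copies did, at lower levels. ChlD-A had 8.5, 7.76 and 8.82 TPM in overexpression, 12.9, 10.2 and 8.47 TPM in knockout, 7.95, 8.80 and 10.03 TPM in K326, and 0.03, 0.08 and 0 TPM in KY. ChlD-B had 11.1, 10.1 and 12.2 TPM in overexpression, 22.1, 17.9 and 13.9 TPM in knockout, 12.5, 14.1 and 16.0 TPM in K326, and 29.2, 25.5 and 25.4 TPM in KY. ChlD-A was near 0 in KY alone, and ChlD-B was highest in KY with no overlap with the other groups. Between overexpression and K326 the ranges overlapped at ChlD-A as deposited and were 10.1 to 12.2 against 12.5 to 16.0 TPM at ChlD-B. After scaling the overexpression libraries all lay above K326 at ChlD-A and overlapped it at ChlD-B.

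ChlI, the only gene described as the ATP-hydrolysing subunit, had no silent group. With 1 gene listed a split between copies cannot be seen, and whether a second copy is missing was not tested. It had 38.9, 40.6 and 38.4 TPM in overexpression, 58.2, 38.2 and 42.0 TPM in knockout, 39.6, 40.04 and 47.7 TPM in K326, and 54.7, 46.2 and 48.0 TPM in KY. As deposited the groups overlapped, except that the KY libraries all lay above the overexpression libraries. After scaling KY overlapped with overexpression and lay above all knockout and K326 libraries. The mean was 39.3 ± 1.15 TPM in overexpression, 46.2 ± 10.6 in knockout, 42.5 ± 4.56 in K326 and 49.6 ± 4.49 in KY (SD, n = 3 each), and no tested pair of groups differed past the threshold. On this per-length scale ChlI lay below the ChlH sum and above the D-type sum in all 12 libraries.

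**Figure D1:**
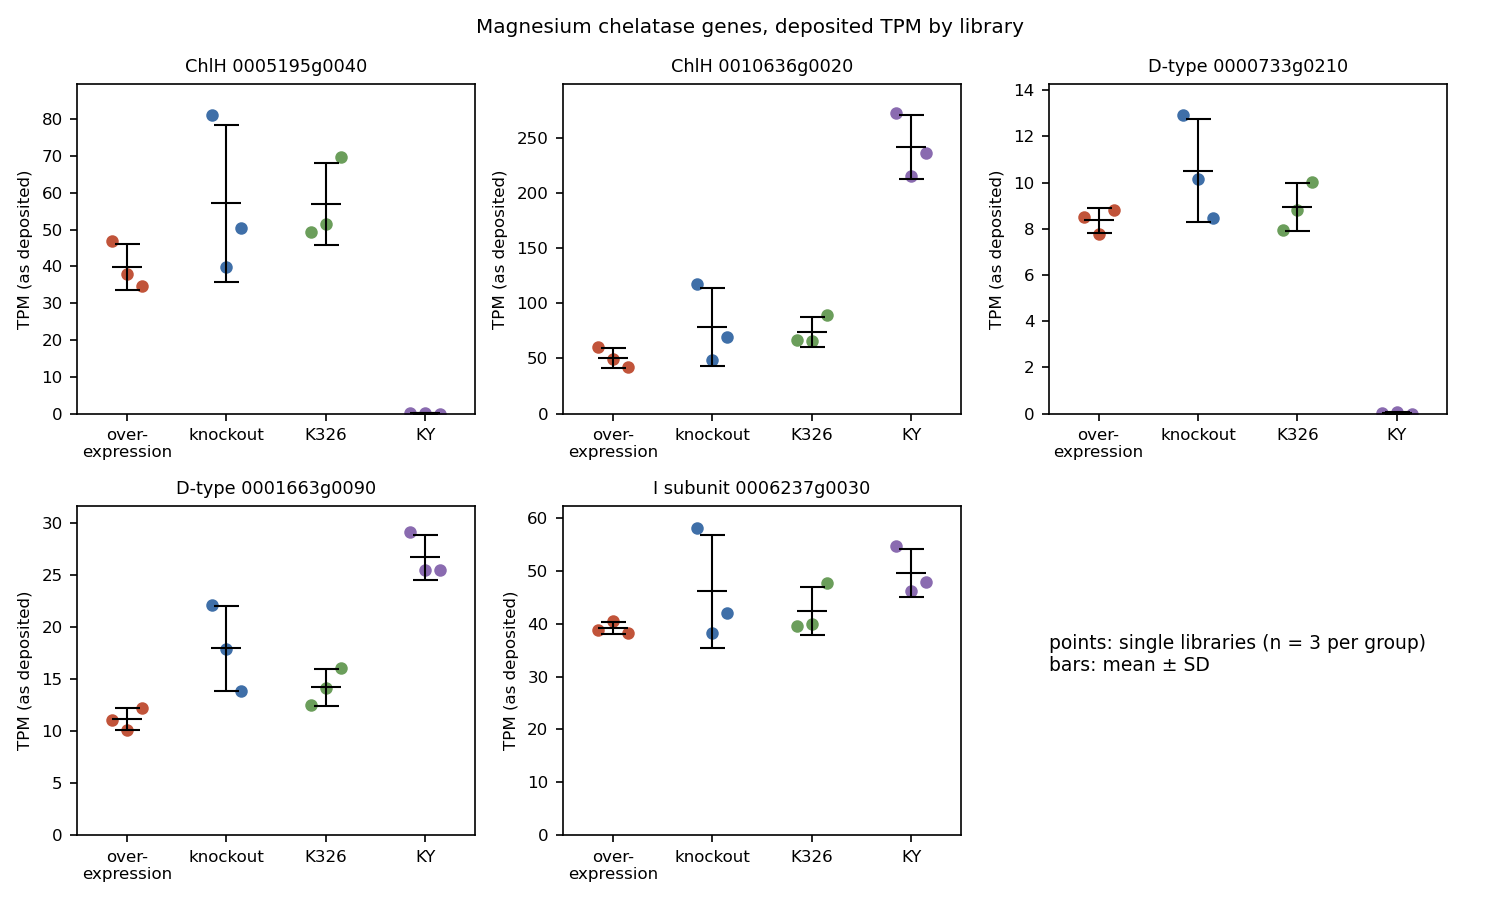
Deposited TPM of the 5 magnesium chelatase genes, with a panel per gene, groups on the horizontal axis, points for single libraries and bars for mean ± SD (n = 3). ChlH-A and ChlD-A (top left and top right, titled by identifier without its prefix) lie at or near 0 in KY, where ChlH-B and ChlD-B are highest. ChlI is not near 0 in any group and has no second listed copy to set beside it.

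The first comparison asked whether the chelatase genes differ between the knockout and K326. None of the 5 passed limma's test at an adjusted p under 0.05, and none had an unadjusted p under 0.05. Of all tested genes 0.0192% passed as deposited and 0.0129% after scaling, and a count of 0 in 5 is near that background. The median log2 change of the 5 was 0.10 as deposited and -0.17 after scaling, beside 0.24 and 0.02 over all genes.

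For ChlH-A the log2 change of knockout against K326 was -0.04 with a 95% interval of -0.57 to 0.49 (limma adjusted p = 0.931), and after scaling it was -0.31 with an interval of -1.0 to 0.37. For ChlH-B it was 0.01 with an interval of -0.56 to 0.58 (limma adjusted p = 0.986), and after scaling -0.27 with an interval of -1.06 to 0.53. The knockout and K326 ranges overlapped at both H genes. ChlD-A, ChlD-B and ChlI gave 0.20, 0.30 and 0.10 as deposited (limma adjusted p = 0.606, 0.555 and 0.779) and -0.05, 0.04 and -0.17 after scaling.

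The knockout libraries were uneven. As deposited, replicate 1 was the highest of the 12 libraries at ChlH-A, ChlD-A and ChlI, and the highest outside KY at ChlH-B and ChlD-B. It had the largest column sum, and after scaling overexpression replicate 2 was above it at all 5 genes. Its ChlH sum was 199 TPM, against 88.7 and 120 TPM in the other knockout libraries. As deposited the same library had the highest sum of Rubisco small subunit genes, 22850 TPM against 10902 and 10015 TPM in the others. After scaling these sums were 17910 against 7225 and 8293 TPM, and that measure's part in the result was not tested. Without this library the log2 changes of ChlH-A and ChlH-B were -0.32 and -0.33 as deposited (limma adjusted p = 0.606 for each).

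In overexpression against KY, 4 of the 5 genes passed, where 18.3% of all tested genes did as deposited (6.76% higher and 11.5% lower) and 35.0% after scaling. The A copies rose and the B copies fell. Both A copies were near 0 in KY and passed the filter on low values through the other groups. Their part in this count lends no support. ChlH-A changed by 5.20 ± 0.252 and ChlD-A by 3.17 ± 0.203 on the log2(TPM + 1) scale (SE, limma adjusted p = 8.6e-10 and 2.1e-08). ChlH-B changed by -2.24 ± 0.271 and ChlD-B by -1.19 ± 0.209 (SE, limma adjusted p = 3.5e-05 and 0.00084). The overexpression mean was 0.209 times the KY mean at ChlH-B and 0.417 times at ChlD-B. After scaling the 4 changes were 5.71, 3.66, -2.08 and -1.05, and all 4 passed. ChlI gave -0.33 with an interval of -0.75 to 0.10 (limma adjusted p = 0.292), and -0.16 after scaling.

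K326 against KY, the comparison of the wild types, gave the same 4 genes in the same directions, and it shares the KY libraries with the one before. The A copies passed the filter through the other groups here too. Of all tested genes 27.0% passed as deposited (24.0% higher and 2.99% lower) and 25.2% after scaling. After scaling ChlH-A, ChlH-B and ChlD-A stood at 5.55, -2.20 and 3.13, and all 3 passed. As deposited, ChlH-A and ChlD-A were higher in K326, by 5.70 ± 0.252 and 3.25 ± 0.203 on the log2 scale (SE, limma adjusted p = 2.5e-10 and 1.4e-08). ChlH-B was lower by a log2 change of -1.70 ± 0.271 (SE, limma adjusted p = 0.00047), with a K326 mean 0.306 times that of KY. ChlD-B was lower by a log2 change of -0.87 ± 0.209 (SE, limma adjusted p = 0.0081). Without KY replicate 1, ChlD-B stood at -0.81 with an adjusted p of 0.0526 in limma's fit, and after scaling of all libraries at -1.35 with 0.00058. ChlI gave -0.22 as deposited and -0.71 after scaling (limma adjusted p = 0.398 and 0.0607).

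Overexpression against K326 gave no call among the 5 genes, although 38.8% of all tested genes passed as deposited and 10.3% after scaling. At an unadjusted p under 0.05 there were 0 of the 5 as deposited and 1 after scaling, ChlD-A. The scale set the sign here. As deposited the log2 changes were -0.50, -0.54, -0.08, -0.32 and -0.10 for ChlH-A, ChlH-B, ChlD-A, ChlD-B and ChlI, beside a median of -0.51 over all genes. After scaling they were 0.16, 0.12, 0.53, 0.30 and 0.55, beside a median of -0.02. The smallest of the limma adjusted p-values was 0.109 as deposited, at ChlH-B, and 0.0805 after scaling, at ChlD-A. The 95% intervals after scaling were -0.53 to 0.84 for ChlH-A, -0.68 to 0.92 for ChlH-B and -0.01 to 1.11 for ChlI.

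**Figure D2:**
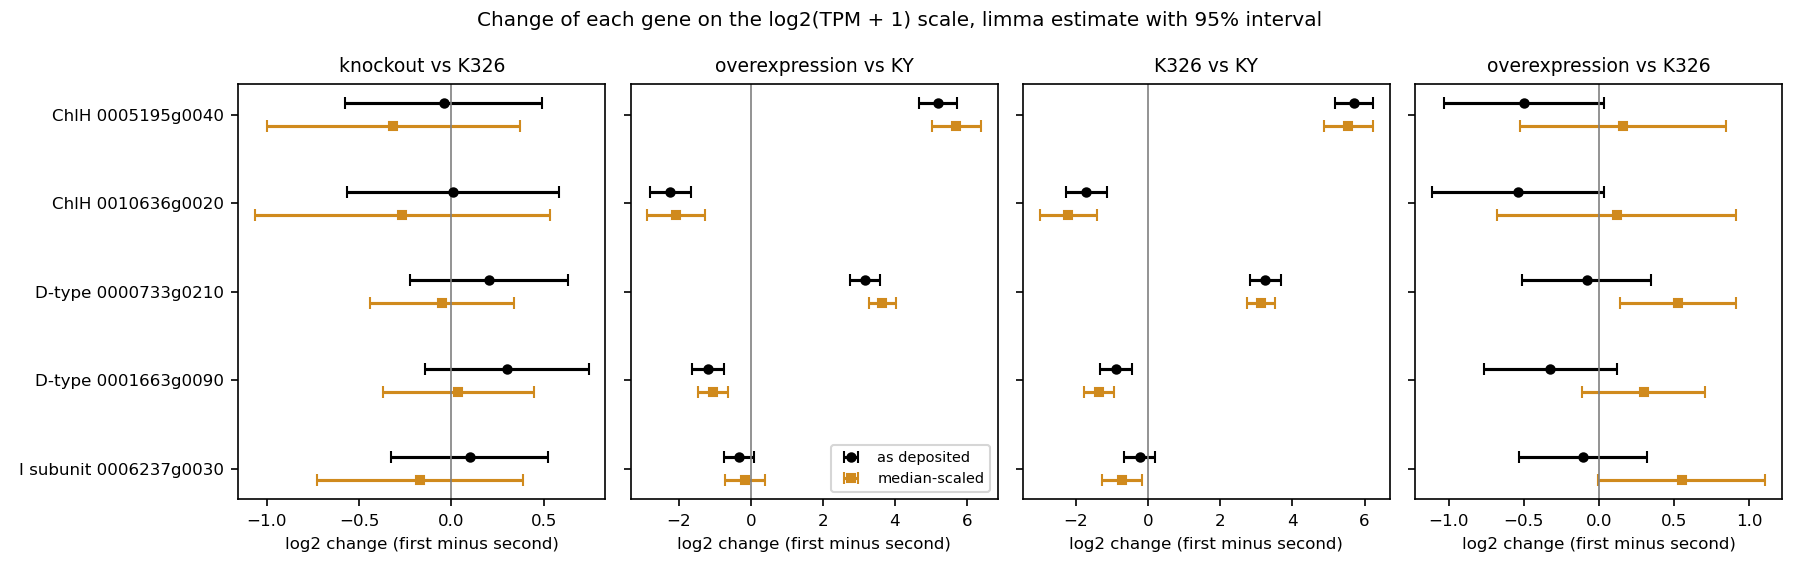
Log2 change of each chelatase gene in the 4 comparisons on the log2(TPM + 1) scale, first group minus second, as limma estimates with 95% intervals, as deposited (black circles) and median-scaled (orange squares). The horizontal axes differ between panels. The A copies lie to the right and the B copies to the left of 0 in both comparisons with KY, and in overexpression against K326 the orange squares lie right of 0 where the black circles lie left.

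Shares within a library do not depend on how libraries are scaled. Of the ChlH transcripts in each library, ChlH-A made 43.7, 43.6 and 45.2% in overexpression, 40.9, 44.9 and 42.1% in knockout, 42.5, 44.0 and 43.9% in K326, and 0.0220, 0.121 and 0% in KY. Outside KY the share thus stayed between 40.9 and 45.2%, although the ChlH sum ranged from 76.8 to 199 TPM in those 9 libraries. For overexpression against K326 the mean share was 44.2 ± 0.871% against 43.5 ± 0.832% (SD, n = 3 each, two-sided exact permutation p = 0.6). With 3 libraries a group the smallest exact p is 0.1, and over the 28 such tests run here that value becomes 0.187 after Benjamini-Hochberg adjustment, so none could pass.

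The D-type share moved a little more. ChlD-A made 43.4, 43.5 and 42.0% of D-type transcripts in overexpression, 36.9, 36.3 and 37.9% in knockout, 39.0, 38.4 and 38.5% in K326, and 0.103, 0.313 and 0% in KY. The overexpression libraries all lay above K326, by 4.36 percentage points on average, and the knockout libraries all lay below it, by 1.57 points (two-sided exact permutation p = 0.1 for each, 0.187 adjusted). The difference of overexpression from K326 stayed between 4.07 and 4.86 points when any 1 of the 6 libraries was left out.

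**Figure D3:**
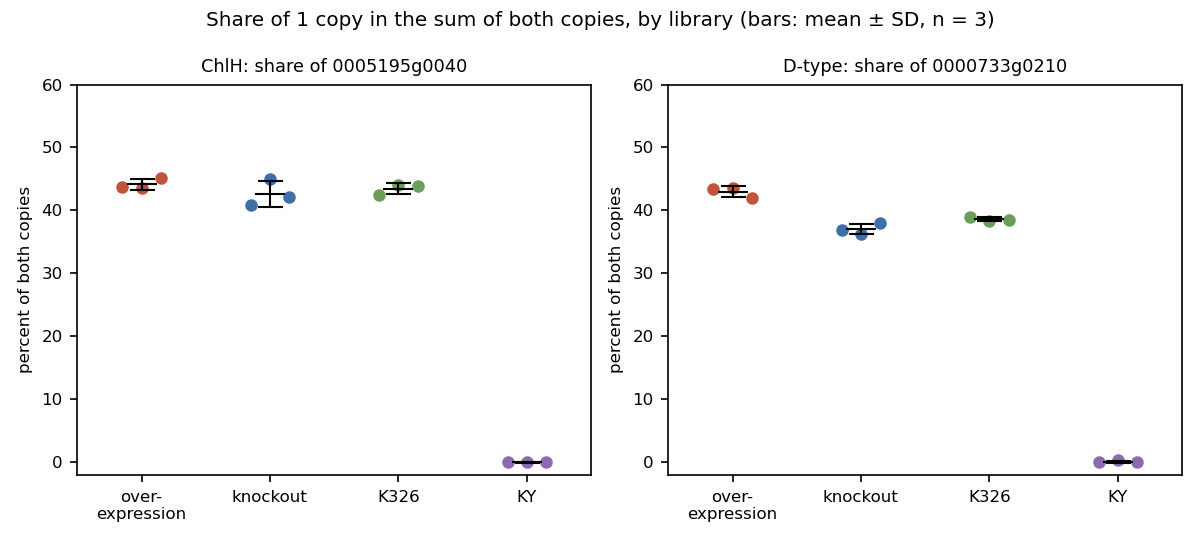
Share of ChlH-A (left) in the sum of both ChlH copies and of ChlD-A (right) in the sum of both D-type copies, in percent, with points for libraries and bars for mean ± SD (n = 3). Outside KY the ChlH share stays between 40.9 and 45.2%, and the D-type share is 42.0 to 43.5% in overexpression, 36.3 to 37.9% in knockout and 38.4 to 39.0% in K326.

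Summed over both copies, H subunit transcripts were most abundant in KY although ChlH-A was near 0 there. The ChlH sum was 90.4 ± 15.5 TPM in overexpression, 136 ± 56.7 in knockout, 131 ± 24.2 in K326 and 241 ± 28.9 in KY (SD, n = 3 each). After scaling the means were 135, 104, 121 and 315 TPM in the same groups. The lowest KY library, 215 TPM, was above the highest of the other groups, 199 TPM in knockout replicate 1. The overexpression mean was 0.374 times that of KY as deposited and 0.429 times after scaling, and the K326 mean 0.542 and 0.384 times (two-sided exact permutation p = 0.1 for each as deposited, 0.187 adjusted).

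The D-type sum differed less. It was 19.5 ± 1.60 TPM in overexpression, 28.4 ± 6.35 in knockout, 23.1 ± 2.81 in K326 and 26.7 ± 2.13 in KY (SD, n = 3 each), and 28.6, 21.5, 21.3 and 34.8 TPM after scaling. The overexpression mean was 0.729 times that of KY as deposited and 0.823 times after scaling, and the K326 mean 0.866 and 0.612 times. ChlD-A made at most 0.313% of this sum in any KY library. The K326 and KY ranges of the sum overlapped as deposited.

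The balance between subunits separated KY from the other groups. The ratio of ChlH to D-type transcripts was 5.48, 4.88 and 3.65 in overexpression, 5.67, 3.17 and 5.35 in knockout, 5.70, 5.11 and 6.10 in K326, and 9.33, 8.43 and 9.29 in KY. Every KY library exceeded every other library. The ratio of ChlH to ChlI transcripts was likewise 2.30 ± 0.402 in overexpression, 2.86 ± 0.543 in knockout and 3.06 ± 0.228 in K326, against 4.85 ± 0.169 in KY (SD, n = 3 each). Ratios with ChlI set 1 listed gene against a sum of 2 copies. As log2 ratios of the partner to ChlH, D-type differed by 0.97 and ChlI by 1.09 in overexpression against KY, and by 0.68 and 0.67 in K326 against KY (two-sided exact permutation p = 0.1 for each, 0.187 adjusted).

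The ratio of the motor subunits did not set KY apart. ChlI per D-type transcript was 2.03 ± 0.229 in overexpression, 1.64 ± 0.261 in knockout, 1.84 ± 0.0978 in K326 and 1.86 ± 0.0426 in KY (SD, n = 3 each). Single libraries ran from 1.36 in knockout to 2.28 in overexpression, and the KY range lay within these. The log2 ratio differed by -0.18 ± 0.143 in knockout against K326, 0.12 ± 0.095 in overexpression against KY, -0.01 ± 0.048 in K326 against KY and 0.14 ± 0.103 in overexpression against K326 (SE, two-sided exact permutation p = 0.3, 0.3, 0.8 and 0.3). With 3 libraries a group these tests do not show that the ratio was the same. The overexpression libraries had less ChlH per ChlI than K326 in every pair of libraries, with the log2 ratio of ChlI to ChlH higher by 0.42 ± 0.153 (SE, two-sided exact permutation p = 0.1, 0.187 adjusted). For knockout against K326 that difference was 0.11 ± 0.171 (SE, two-sided exact permutation p = 0.5).

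**Figure D4:**
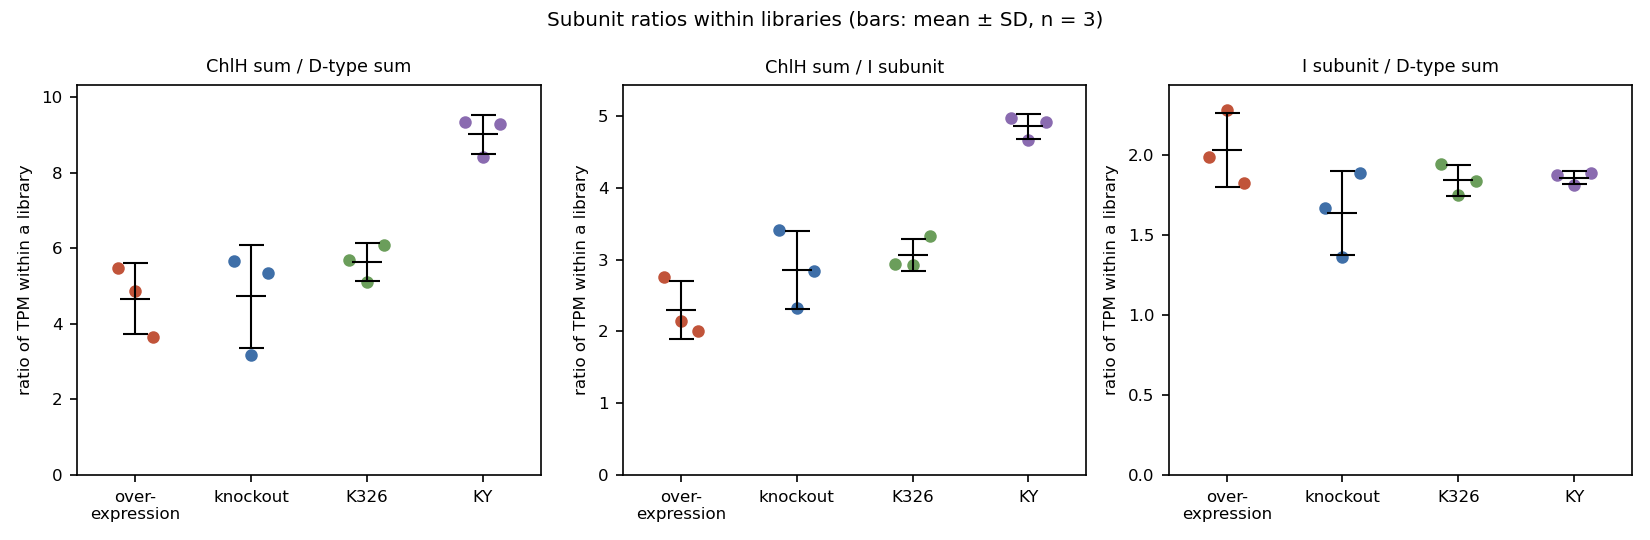
Ratios of summed TPM within each library, ChlH to D-type, ChlH to ChlI and ChlI to D-type, with points for libraries and bars for mean ± SD (n = 3). KY lies at 8.43 to 9.33 for ChlH to D-type, above the highest other library at 6.10, while for ChlI to D-type the KY range lies within that of the other groups.

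The 2 line effects, overexpression against KY and knockout against K326, differed at the same 4 genes, where 8.78% of all tested genes did as deposited and 15.8% after scaling. The difference of effects was 5.24 at ChlH-A, -2.25 at ChlH-B, 2.97 at ChlD-A and -1.49 at ChlD-B on the log2 scale (limma adjusted p = 2.1e-07, 0.0022, 8.8e-06 and 0.0059). It was -0.43 at ChlI (limma adjusted p = 0.340). Since each effect was taken against another wild type, the difference holds the difference between K326 and KY. The A copies again passed the filter on low values through the groups other than KY.

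The other tetrapyrrole genes were taken by description patterns: 34 tested genes of the steps from glutamate to protoporphyrin, 14 of the heme branch and 12 others of the chlorophyll branch. None of the 60 met the rule of 0.5 and 2 TPM that ChlH-A and ChlD-A met. Of all tested genes 0.390% met it, so this count is near the background and does not set the 60 apart. In knockout against K326 none of the 60 passed limma's test in either setting; at an unadjusted p under 0.05 there were 1 early gene and 3 heme genes as deposited and 1 early gene after scaling, beside 8.12 and 6.77% of all tested genes. Overexpression against KY gave 6 lower early genes and no higher one on the deposited scale, and 7 lower and 1 higher after scaling. Over all tested genes 11.5% were lower and 6.76% higher as deposited, and 17.3% and 17.7% after scaling. The early steps were near that background for lower genes and below it for higher ones. In the chlorophyll branch 4 were lower as deposited and 1 after scaling, and none was higher. The heme branch gave 2 higher genes and 1 lower on the deposited scale, against 4 higher and 2 lower with scaling. The median log2 change was -0.28 for the early steps, 0.03 for the heme branch and -0.57 for the chlorophyll branch as deposited, beside -0.11 over all genes. After scaling the 3 medians were -0.15, 0.14 and -0.41, beside -0.01.

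In K326 against KY the early steps gave 2 higher and 4 lower genes on the deposited scale, and 2 and 13 with scaling. Of all tested genes, 24.0% rose and 2.99% fell on the deposited scale, against 12.3% and 13.0% with scaling. The heme branch gave 5 higher genes and no lower one on the deposited scale, and 3 and 1 with scaling. The chlorophyll branch gave 1 higher gene on the deposited scale and 1 lower with scaling. In overexpression against K326, 5, 7 and 4 genes of the 3 lists were lower as deposited, where 36.9% of all tested genes were lower, so that 16 of 60 is not above the background. After scaling 2 early genes were higher, 1 was lower (5.59% and 4.73% over all genes) and no gene of the other lists passed. At an unadjusted p under 0.05 in limma's fit there were then 13 of 34 early, 4 of 14 heme and 0 of 12 chlorophyll genes, beside 27.8% of all tested genes.

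GUN4, the stimulating partner of ChlH, is a single gene in the table, Nitab4.5_0008969g0010. It had 42.0, 32.5 and 25.8 TPM in overexpression, 86.9, 36.2 and 56.9 TPM in knockout, 67.3, 64.2 and 81.7 TPM in K326, and 90.9, 54.5 and 60.5 TPM in KY. As deposited the overexpression libraries were below all those of K326 and KY. It fell in overexpression against KY as deposited, by a log2 change of -1.01 (limma adjusted p = 0.022), but did not pass after scaling, at -0.85 (limma adjusted p = 0.12). Against K326 the change was -1.08 as deposited and -0.43 after scaling (limma adjusted p = 0.014 and 0.52). K326 against KY did not pass at GUN4, with 0.08 and -0.42 (limma adjusted p = 0.851 and 0.47).

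At the start of the pathway, the most abundant gene matched as glutamyl-tRNA reductase, the enzyme that commits glutamate to tetrapyrroles, was Nitab4.5_0009708g0010. It averaged 19.2 ± 3.64 TPM in overexpression, 34.3 ± 11.9 in knockout, 38.9 ± 7.45 in K326 and 52.2 ± 3.65 in KY (SD, n = 3 each). It fell in overexpression against KY, by a log2 change of -1.41 as deposited and -1.25 after scaling (limma adjusted p = 0.00076 and 0.0062). Against K326 the change was -0.98 as deposited and -0.34 after scaling (limma adjusted p = 0.011 and 0.48). K326 against KY gave -0.43 and -0.92 (limma adjusted p = 0.19 and 0.036), so the wild types also differed after scaling. The next enzymes act after the chelatase. The methyltransferase of magnesium protoporphyrin, Nitab4.5_0000976g0010, averaged 37.4 ± 2.00 TPM in overexpression and 43.8 ± 3.77 TPM in KY and passed in no comparison. The monomethyl ester cyclase Nitab4.5_0000123g0170 averaged 453 ± 55.1 TPM in overexpression and 826 ± 70.9 TPM in KY, with a log2 change of -0.87 that passed as deposited (limma adjusted p = 0.015) and -0.70 that did not after scaling (limma adjusted p = 0.072). In overexpression against K326 this gene gave -0.72 as deposited and -0.05 after scaling (limma adjusted p = 0.027 and 0.93). K326 against KY gave -0.15 and -0.65 (limma adjusted p = 0.63 and 0.11).

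Ferrochelatase competes with magnesium chelatase for protoporphyrin and places iron in it to make heme. Its 4 genes split in pairs. Nitab4.5_0001179g0080 averaged 12.2 ± 6.78 TPM in overexpression, 21.8 ± 3.04 in knockout, 13.4 ± 2.14 in K326 and 6.33 ± 1.96 in KY, and Nitab4.5_0001584g0010 averaged 13.1 ± 7.71, 20.5 ± 3.03, 14.3 ± 0.966 and 5.16 ± 1.19 TPM in the same groups (SD, n = 3 each). Both were higher in K326 than in KY as deposited, by 1.00 and 1.33 on the log2 scale (limma adjusted p = 0.021 and 0.0047), and only the second also after scaling. In overexpression against KY, Nitab4.5_0001584g0010 was higher in both settings, by 1.08 and 1.27 (limma adjusted p = 0.015 and 0.0019), and Nitab4.5_0001179g0080 after scaling alone, by 0.94 (limma adjusted p = 0.025). Nitab4.5_0004747g0010 and Nitab4.5_0001557g0010 averaged 12.1 ± 2.72 and 9.99 ± 1.84 TPM in overexpression, against 19.8 ± 2.13 and 18.1 ± 0.753 TPM in KY (SD, n = 3 each). Nitab4.5_0001557g0010 fell in overexpression against KY in both settings, with log2 changes of -0.81 and -0.67 (limma adjusted p = 0.015 and 0.0029), and Nitab4.5_0004747g0010 after scaling alone, with -0.54 (limma adjusted p = 0.011). In K326 against KY, Nitab4.5_0001557g0010 was lower after scaling alone, by a log2 change of -0.50 (limma adjusted p = 0.019), and Nitab4.5_0004747g0010 in neither setting. No ferrochelatase gene was near 0 in KY.

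Genes near the chelatase copies were found by their identifiers, which carry a scaffold number. Of 25 other genes on the scaffold of ChlD-A, 13 were tested. All 13 were higher in K326 than in KY and 11 were higher in overexpression than in KY, where 24.0% and 6.76% of all tested genes were higher. After scaling 12 were tested, and all 12 were higher in both comparisons, where 12.3% and 17.7% of all tested genes were. No KY library had more than 0.39 TPM at any of them, and 8 met the rule of 0.5 and 2 TPM that 0.390% of tested genes met. They include genes as different as an NmrA-like gene, Nitab4.5_0000733g0110, with 36.4, 19.3 and 33.6 TPM in overexpression against 0, 0.11 and 0 TPM in KY, and the remorin gene Nitab4.5_0000733g0190, with 3.97, 1.49 and 3.84 TPM against 0, 0.04 and 0 TPM. A neighbour near 0 in KY passed the filter on low values through the other groups, so these counts lend no support. The 12 untested neighbours reached at most 1.11 TPM in any library.

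On the scaffold of ChlH-A, 2 of 11 other genes were tested, and both were higher in overexpression and in K326 than in KY, where 6.76% and 24.0% of all tested genes were. Both were under 1 TPM in every KY library and so passed the filter through the other groups, which lends these counts no support either. Nitab4.5_0005195g0030, an N-terminal glutamine amidohydrolase gene, had 3.33, 2.23 and 3.5 TPM in overexpression against 0.80, 0.63 and 0.66 TPM in KY. Nitab4.5_0005195g0070, of the DUF288 family, had 3.94, 2.62 and 4.79 TPM against 0.80, 0.60 and 0.68 TPM. These neighbours were low in KY but not at 0, unlike ChlH-A between them.

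The scaffolds of the B copies did not show such uniformly low values in KY. Of 15 tested neighbours of ChlD-B, 4 were lower and none higher in overexpression than in KY, and 2 were higher and 1 lower in K326 than in KY. After scaling 16 were tested, of which 6 were lower and 1 higher in overexpression, and 7 lower and 2 higher in K326. Over all tested genes 11.5% and 2.99% were lower in these comparisons as deposited and 17.3% and 13.0% after scaling, while 6.76% and 24.0% were higher as deposited and 17.7% and 12.3% after scaling. The elongation factor 4 type gene Nitab4.5_0001663g0160, whose product acts on the bacterial kind of ribosome, had 28.7, 22.8 and 32.1 TPM in overexpression against 126, 111 and 109 TPM in KY (log2 change -2.03 as deposited and -1.87 after scaling, limma adjusted p = 7.6e-06 and 9.1e-06). It was also lower in K326 than in KY, by -1.45 and -1.94 (limma adjusted p = 0.00022 and 7.4e-06). Overexpression against K326 gave -0.58 as deposited and 0.07 after scaling (limma adjusted p = 0.041 and 0.80). Both tested neighbours of ChlH-B bear the descriptions of the ChlH-A neighbours, amidohydrolase and DUF288. Nitab4.5_0010636g0030, the amidohydrolase gene, was lower in overexpression than in KY as deposited, by a log2 change of -0.71 (limma adjusted p = 0.040), and did not pass after scaling. Nitab4.5_0010636g0040, the DUF288 gene, was lower after scaling alone, by -0.36 in overexpression and -0.51 in K326 against KY (limma adjusted p = 0.049 and 0.014). The NUDIX hydrolase gene Nitab4.5_0006237g0010, the 1 tested neighbour of ChlI, passed in no comparison. In knockout against K326 no tested neighbour of any chelatase gene passed limma's test as deposited, with 1 of 13 neighbours of ChlD-A, 4 of 15 of ChlD-B and the 1 of ChlI at an unadjusted p under 0.05, beside 8.12% of all tested genes. After scaling these counts were 0 of 12, 1 of 16 and 0 of 1, beside 6.77%.

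Shared descriptions paired genes across the A and B scaffolds, and the pairs beside the chelatase genes were chosen after their values had been seen. The A member made 37.1 ± 9.82% of the amidohydrolase pair in overexpression, 45.6 ± 9.22% in knockout and 40.9 ± 3.34% in K326, against 7.17 ± 0.555% in KY (SD, n = 3 each). For the DUF288 pair it made 69.9 ± 3.49, 74.9 ± 3.01 and 70.3 ± 1.07%, against 22.0 ± 4.83% in KY. For the remorin pair, Nitab4.5_0000733g0190 and Nitab4.5_0001663g0020, it made 24.2 ± 2.35, 24.7 ± 0.913 and 26.9 ± 4.93%, against 0.0236 ± 0.0409% in KY. For the pair of B3 domain genes, Nitab4.5_0000733g0200 and Nitab4.5_0001663g0030, it made 71.9 ± 4.36, 73.5 ± 4.45 and 69.8 ± 1.78%, against 3.98 ± 6.89% in KY, where the single libraries had 0, 11.9 and 0%. In each of these 4 pairs the highest KY share lay below the lowest share outside KY. The A members were all under 1 TPM in every KY library and so passed the filter through the other groups, which lends these shares no support.

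**Figure D5:**
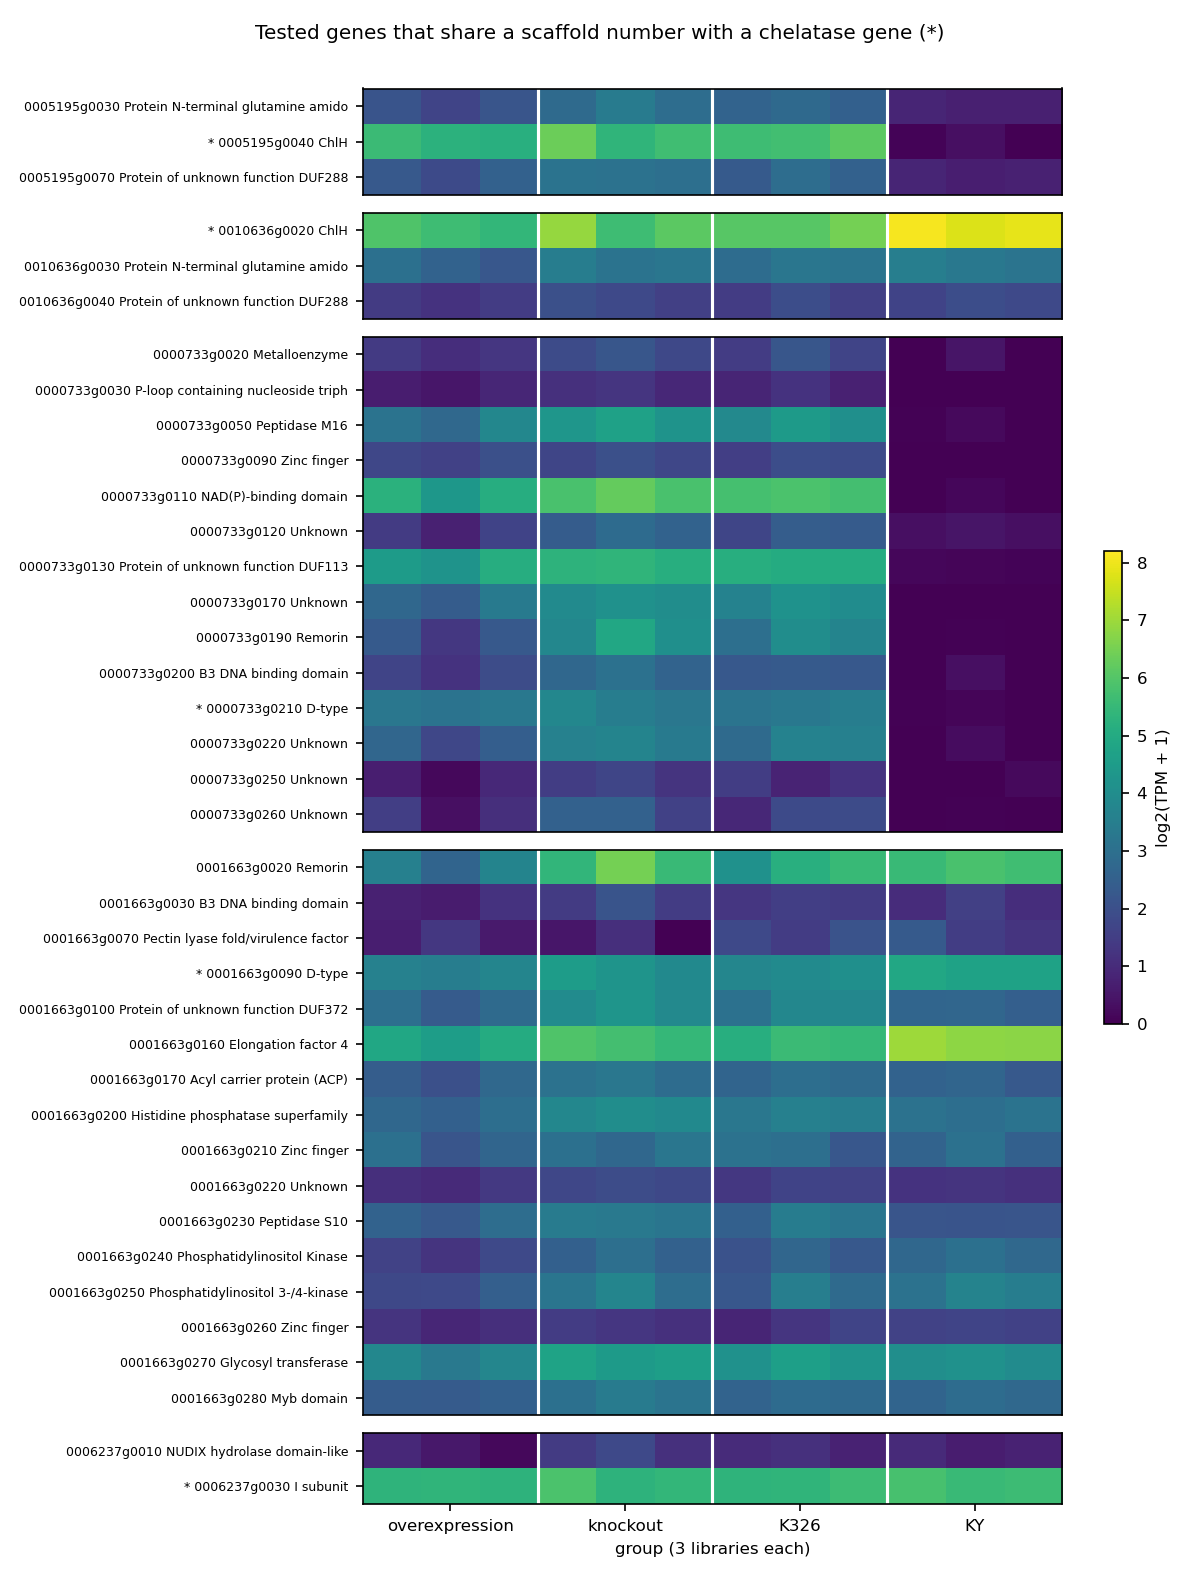
Deposited log2(TPM + 1) of all tested genes that share a scaffold number with a chelatase gene (marked *), with genes down the page, 1 block per scaffold, and the 12 libraries across, grouped as overexpression, knockout, K326 and KY. The block of ChlD-A (Nitab4.5_0000733g0210) is dark throughout in KY, where no tested neighbour exceeds 0.39 TPM, and the block of ChlD-B (Nitab4.5_0001663g0090) is not.

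Likeness was measured by Pearson's r over the 12 libraries on scaled log2 values, against 14150 described genes, and for the A copies it rests mostly on the gap between KY and the rest. Nearest to both A copies was Nitab4.5_0000147g0070, a gene described, like the neighbour of ChlD-B, as elongation factor 4, with r = 0.991 to ChlH-A and 0.989 to ChlD-A. It averaged 46.1 ± 10.4 TPM in overexpression, 76.0 ± 16.5 in knockout and 57.7 ± 10.7 in K326, against 0.147 ± 0.150 TPM in KY (SD, n = 3 each). Next to ChlH-A were a CRAL-TRIO gene, Nitab4.5_0000976g0100 (r = 0.991), and an S-formylglutathione hydrolase gene, Nitab4.5_0000826g0060 (r = 0.989). Next to ChlD-A were an EF-hand gene, Nitab4.5_0000826g0090, listed at 0 in all KY libraries (r = 0.986), and an ankyrin repeat gene, Nitab4.5_0000188g0250 (r = 0.985). The ankyrin repeat gene was graded, with 1.44 ± 0.279 TPM in KY. It averaged 3.25 ± 0.482 TPM in overexpression, 5.99 ± 0.965 in knockout and 4.67 ± 0.680 in K326 (SD, n = 3 each).

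The genes nearest to the B copies were graded rather than lost in any group, which follows from their choice by likeness to graded genes. For ChlH-B they were a UbiB domain gene, Nitab4.5_0000366g0080 (r = 0.991), an aminotransferase gene, Nitab4.5_0012264g0020 (r = 0.990), and a gene with 6-phosphofructo-2-kinase and fructose-2,6-bisphosphatase domains, Nitab4.5_0002352g0010 (r = 0.989). The aminotransferase gene averaged 193 ± 18.0 TPM in overexpression, 286 ± 61.4 in knockout, 290 ± 47.0 in K326 and 495 ± 42.6 in KY (SD, n = 3 each). For ChlD-B they were a RAP domain gene, Nitab4.5_0005148g0010 (r = 0.987), a rhodanese-like gene, Nitab4.5_0011592g0020 (r = 0.986), and a thioredoxin gene, Nitab4.5_0000287g0350 (r = 0.985).

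ChlI had other neighbours in this measure. They were the PsbP gene Nitab4.5_0000019g0250, of the oxygen-evolving side of photosystem II (r = 0.992), the bacterial-type ribosomal protein L4 gene Nitab4.5_0000918g0030 (r = 0.988) and a 2-oxoacid dehydrogenase acyltransferase gene, Nitab4.5_0000560g0010 (r = 0.985). The PsbP gene averaged 344 ± 6.57 TPM in overexpression, 445 ± 124 in knockout, 383 ± 46.4 in K326 and 456 ± 39.99 in KY (SD, n = 3 each). As at ChlI, the spread of the deposited values was widest in the knockout.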

How the data were processed

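Leaf RNA of tobacco seedlings was sequenced in 12 libraries, 3 in each of 4 groups taken from the sample labels. The authors deposited 1 table of 69500 genes, whose values were taken as TPM from the tools named, Salmon and StringTie, per the submitters' processing notes. No header names the unit, the values could also be FPKM, and versions, build and settings are not given in the sources used here. TPM keeps no depth, so precision is known only from the spread of replicates. How reads of near-identical copies were divided between them, and whether both wild types match the reference equally, was not tested.

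Genes at 1 TPM or more in at least 3 libraries (31311) were fitted as log2(TPM + 1) in limma 3.58.1 (R 4.3.3), with 4 group means and the trend and robust options, and p-values were adjusted over all of them (Benjamini-Hochberg, threshold 0.05). Adding 1 understates the change of low genes. Median scaling used 20130 genes at 1 TPM or more in all libraries and left 31064 genes to test. Shares, ratios and sums had two-sided exact permutation tests. The fit was checked on simulated data. Other alternatives were no filter, quantile normalization, a filter on a mean of 5 TPM, a pseudocount of 0.1, the compared libraries alone, the replicate number as a block and each library left out.

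The members, gene lists and rules were chosen with earlier results of these data known. Named genes are the 5 members, the 3 genes most like each, the most abundant gene of a pathway step, all ferrochelatase genes, whose enzyme uses the same substrate, and the 2 nearest tested genes on each side; the NmrA-like gene and the second remorin gene were chosen after their values were seen. The glutamyl-tRNA reductase pattern also takes shikimate dehydrogenase genes and the heme oxygenase pattern thiaminase-type genes. No gene identifier matched the RefSeq table, so no positions or sequences are given. The other software was matplotlib 3.10.9, numpy 2.4.6 and pandas 2.3.3 under Python 3.11.15.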

Additional observations from a re-analysis of the deposited data

Results flagged for a closer look

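The difference between the line effects, overexpression against KY minus knockout against K326, passed limma's test at 4 of the 5 chelatase genes, all on the log2(TPM + 1) scale. Of all tested genes 8.78% passed as deposited and 15.8% after median scaling. ChlH-A and ChlD-A, near 0 in KY, passed the filter on low values through the other groups. The difference was 5.24 at ChlH-A (Nitab4.5_0005195g0040), -2.25 at ChlH-B (Nitab4.5_0010636g0020), 2.97 at ChlD-A (Nitab4.5_0000733g0210) and -1.49 at ChlD-B (Nitab4.5_0001663g0090). After median scaling the values were 6.02, -1.81, 3.71 and -1.09, and all 4 passed (largest limma adjusted p = 0.0357, at ChlH-B). The lines were set against different wild types, and the labels do not give either line's background, so a difference between lines and one between wild types cannot be told apart here.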

How the results depend on the processing

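The number of chelatase genes called (0 in knockout against K326, 4 in overexpression against KY, 4 in K326 against KY, 0 in overexpression against K326, 4 in the difference of effects) was the same under every alternative but 1, the fit without KY replicate 1, which called 3 in K326 against KY. The call lost was ChlD-B, at -0.81 with a limma adjusted p of 0.0526. Of all tested genes 0.0192, 18.3, 27.0, 38.8 and 8.78% passed as deposited, in the same order of comparisons. Nothing says that replicate numbers pair the libraries. Correlations of deviations between libraries of the same number ran from -0.22 to 0.337. Libraries of different numbers were not correlated, so these values cannot decide on pairing. The fit with the replicate number as a block gave the same counts of chelatase genes: 0, 4, 4, 0 and 4.

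Median scaling turned the sign of sums and changes that had not passed. The ChlH sum then differed by -16.6 TPM in knockout against K326 and by 14.2 in overexpression against K326, and the D-type sum by 7.35. For knockout against K326 the log2 changes of ChlH-B, ChlD-A and ChlI became -0.27, -0.051 and -0.17 with scaling and -0.16, -0.042 and -0.073 with quantile normalization. For overexpression against K326 those of ChlH-A, ChlD-A, ChlD-B and ChlI became 0.16, 0.53, 0.30 and 0.55 with scaling and 0.019, 0.45, 0.21 and 0.41 with quantile normalization, and ChlH-B 0.12 with scaling. The difference of effects of ChlI became 0.011.

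Scaling also moved counts of called genes, and the cause was not tested: early steps to 15 in K326 against KY and 3 in overexpression against K326, the heme branch to 6 in overexpression against KY and 0 against K326, and the chlorophyll branch to 1 and 0. Neighbours of ChlH-A, ChlD-A and ChlD-B in overexpression against K326 came to 0, 3 and 1, of ChlD-B to 7 in overexpression against KY and 9 in K326 against KY, and of ChlH-B to 1 in K326 against KY. The share of all tested genes called moved too, from 18.3 to 35.0% in overexpression against KY. It went from 27.0 to 25.2% in K326 against KY and from 38.8 to 10.3% in overexpression against K326.

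With 1 library left out, knockout against K326 ranged over 0 on both sides for the ChlH sum (-26.6 to 28.3 TPM), the ChlH-A share (-2.0 to 0.043 points), the log2 ratio of ChlI to ChlH (-0.026 to 0.25), ChlH-A (-0.32 to 0.18), ChlH-B (-0.33 to 0.30) and ChlI (-0.076 to 0.22). The log2 ratio of ChlI to D-type in K326 against KY ranged from -0.054 to 0.023. With 3 libraries a group and unknown depth, a gene that was not called may still differ between groups. No detection limit was computed for these genes.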
